A study of Mus musculus with 12 samples.

Results

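Haemogenic endothelium kept with doxycycline (Dox) for 24 h was compared, gene by gene, with the same cells kept without Dox for 12 h, to ask how far the induced state resembled an earlier untreated one. The 4 libraries of the comparison were taken by their labels, 2 from Dox 24 h cells and 2 from untreated 12 h cells, of 12 libraries in the series. All cells came from mouse embryonic stem cells of an iSox7 line derived from Ainv18, in which Dox switches on Sox7. Day 3.5 embryoid bodies were sorted for FLK1, and the positive cells spent 48 h in liquid blast medium. Dox at 1 µg/ml was then added to part of them, and cells were taken after 6, 12 or 24 h. The untreated cells carried the same inducible gene. The sort takes a mixed population, and no group received Dox without the inducible Sox7, so effects of Dox and of SOX7 cannot be told apart. Whether replicates were separate cultures is not stated in the labels. P-values therefore measure the spread between these libraries, which may be technical. Of 41128 genes in the count table, 15347 were tested, and calls were made at 0.05 on p-values of the quasi-likelihood test in edgeR, adjusted by the Benjamini-Hochberg method over all tested genes.

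Haemogenic endothelium is the endothelium of the embryo that turns into blood. In this endothelial-to-haematopoietic transition flat, VE-cadherin-positive cells lose endothelial identity, gain blood surface proteins and round up. RUNX1 drives the transition by switching on blood genes. SOX7 belongs, with SOX17 and SOX18, to the SOXF transcription factors, which act in endothelial and arterial specification and are switched off as blood forms.

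Library totals ran from 13485804 to 35250074 counts, with 1 shallow and 1 deep library in each group. Expression of single genes is given as CPM (counts scaled by library size), for replicate 1 and then replicate 2, and differences as log2 fold change ± SE. A difference in brackets without a named hour is that from untreated 12 h cells. Among the defining endothelial markers, the junction protein VE-cadherin gene Cdh5 had 696 and 741 CPM in Dox 24 h cells, against 529 and 581 CPM in untreated 12 h cells, and Pecam1, Kdr, Tek, Tie1 and Esam were each above 80 CPM in these 4 libraries. The pan-leukocyte gene Ptprc had 5.09 and 4.45 CPM in Dox 24 h cells, against 4.70 and 5.48 CPM in untreated 12 h cells, the monocyte receptor gene Csf1r was under 5 CPM in all 4, and the pluripotency gene Nanog was under 1 CPM. The smooth muscle actin gene Acta2 was abundant, with 5313 and 5381 CPM in Dox 24 h cells, against 4714 and 5113 CPM in untreated 12 h cells. The labelled endothelial identity thus had these markers, beside strong expression of smooth muscle and mesenchyme genes in both groups. Emcn, another defining endothelial marker, is not reported here. Tested erythroid genes summed to 1829 to 2124 CPM in Dox 24 h cells and 2055 to 3108 CPM in untreated 12 h cells. The early blood gene Itga2b had 46.6 and 46.9 CPM, against 61.5 and 54.7 CPM. Tested pluripotency genes summed to 367 to 368.9 CPM, against 401.7 to 444 CPM.

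Sox7 (chromosome 14, 63943674 to 63950732, plus strand, GRCm38) had 337 and 331 CPM in Dox 24 h cells. Untreated cells had 77.9 and 81.7 at 6 h, 55.6 and 68.8 at 12 h and 52.5 and 52.1 CPM at 24 h. Every Dox 24 h library lay above every untreated library, and the difference from untreated 12 h cells was 2.40 ± 0.07 (adjusted p = 1.6e-21). Counts do not separate the inducible copy from the native gene. Sox17 had 58.9 and 66.2 CPM in Dox 24 h cells, against 63.2 and 60.1 CPM in untreated 12 h cells (0.02 ± 0.07, adjusted p = 0.9), which overlap. Sox18 was lower, with 82.8 and 83.0 CPM in Dox 24 h cells, against 113 and 126 CPM in untreated 12 h cells (-0.54 ± 0.06, adjusted p = 1.7e-07). Runx1 had 184 and 183 CPM in Dox 24 h cells. Untreated cells had 149 and 145 at 6 h, 173 and 166 at 12 h and 210.3 and 203 CPM at 24 h. Both Dox 24 h libraries lay above the untreated 12 h and below the untreated 24 h libraries, and the differences were 0.12 ± 0.06 (adjusted p = 0.15) from 12 h and -0.17 ± 0.06 (adjusted p = 0.053) from 24 h, neither of them called. Gfi1, a repressor through which RUNX1 silences endothelial genes, had 8.83 and 7.97 CPM in Dox 24 h cells, against 6.69 and 6.96 CPM in untreated 12 h cells (0.31 ± 0.16, adjusted p = 0.17). Its paralogue Gfi1b had 14.2 and 12.3 CPM in Dox 24 h cells, against 17.8 and 16.6 CPM in untreated 12 h cells (-0.35 ± 0.14, adjusted p = 0.073).

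Across all tested genes, 3799 were called between Dox 24 h and untreated 12 h cells (24.8%), 1895 higher (12.3%) and 1904 lower (12.4%). Most differences were small. Of the called genes, 252 differed at least 2-fold, 179 higher and 73 lower, and for 9900 genes (64.5%) the 95% interval lay within 1.5-fold on both sides. Against untreated 24 h cells 1690 genes were called (11.0%), 690 higher (4.50%) and 1000 lower (6.52%), of which 442 differed at least 2-fold, 72 higher and 370 lower. Against untreated 6 h cells 6079 were called (39.6%). Dox 24 h cells thus had more called genes but fewer 2-fold ones against untreated 12 h cells than against untreated 24 h cells. These 3 comparisons share the Dox 24 h libraries. As a distance over all tested genes, the root mean square (RMS) of the log2 differences between group means was 0.402 between Dox 24 h and untreated 12 h cells, 0.434 to untreated 24 h cells and 0.498 to untreated 6 h cells. Untreated 24 h and 12 h cells were 0.41 apart.

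To place the induced state on the untreated course, 1951 course genes were taken that differed at least 1.5-fold and were called between untreated 24 h and untreated 6 h cells, 1433 rising and 518 falling (12.7%, 9.34% and 3.38% of tested genes). Neither of those groups enters the difference between Dox 24 h and untreated 12 h cells, though the fit shares its estimate of spread over all 12 libraries. On a scale from 0 at untreated 6 h to 1 at untreated 24 h, the mean over course genes stood at 0.608 and 0.597 in the Dox 24 h libraries and at 0.422 and 0.372 in the untreated 12 h libraries. Falling genes had gone further than rising ones. They stood at 0.745 and 0.838 in Dox 24 h libraries, where rising genes stood at 0.576 and 0.541. The nearest point of the interpolated untreated course was 15.5 h for one Dox 24 h library and 15.0 h for the other by course genes, and 17.0 h for both by all tested genes. These positions are descriptions without a test. Untreated 6 h and 24 h cells chose the course genes and also set the ends of the scale. Only untreated 12 h and Dox libraries are therefore read against each other.

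**Figure D1:**
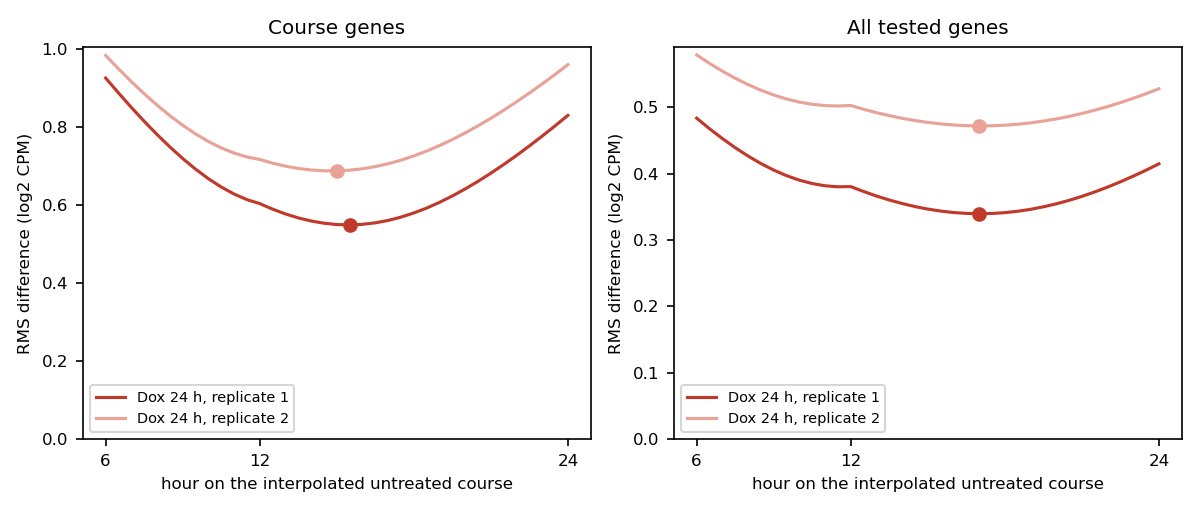
RMS difference in log2 CPM (vertical axis) between each Dox 24 h library (lines) and the untreated profile interpolated between 6, 12 and 24 h (horizontal axis), over 1951 course genes and over 15347 tested genes. Points mark the lowest value of each line, at 15.5 and 15.0 h for course genes and 17.0 h for all genes.

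The nearest point left a remainder. Over course genes the RMS at that point was 0.549 and 0.687 in the Dox 24 h libraries, against 0.603 and 0.716 at untreated 12 h and 0.829 and 0.959 at untreated 24 h. Replicate libraries of a group stood 0.367 to 0.46 from each other over course genes, a distance between single libraries rather than from a mean. The curve of distance by hour shows how shallow the lowest point was.

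Each course gene was then set against its untreated 12 h level. Among the 1433 rising genes, 465 (32.4%) were higher in Dox 24 h than in untreated 12 h cells, which is ahead on the course, and 93 (6.49%) were lower, which is behind. A further 261 (18.2%) were at the 12 h level, meaning not called and with a 95% interval within 1.5-fold, and 614 (42.8%) had wider intervals and are left undecided. The undecided rising genes were mostly low, with a median log2 CPM of 0.391. Among the 518 falling genes, 237 (45.8%) were ahead, 109 (21.0%) at the level, 14 (2.70%) behind and 158 (30.5%) undecided. Genes ahead, level and behind thus occurred side by side. In the rising genes that were ahead, the median difference between Dox 24 h and untreated 24 h cells was -0.0124, and it was -1.46 in those that were behind. The classes were made with the same Dox 24 h libraries, so these medians are not independent of them.

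**Figure D2:**
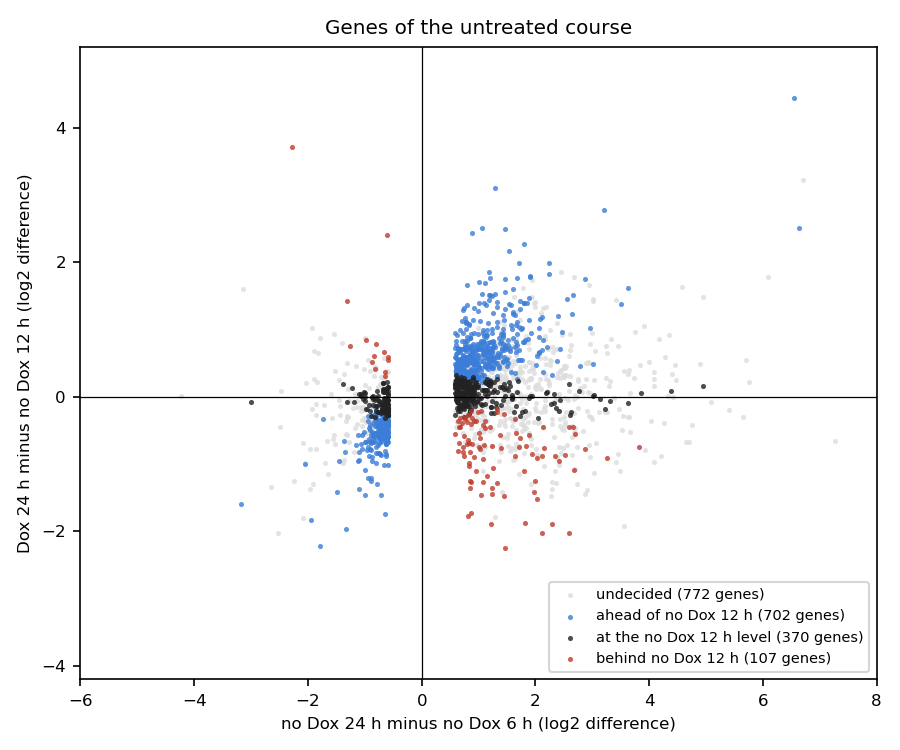
Log2 difference between Dox 24 h and untreated 12 h cells (vertical axis) against that between untreated 24 h and untreated 6 h cells (horizontal axis) for 1951 course genes, each a point coloured by its class. The 702 genes ahead lie on the side of the course direction, the 370 at the level lie near 0 and the 107 behind lie on the opposite side.

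Genes of cell division were lower than in untreated 12 h cells and near their untreated 24 h levels. All 22 tested genes of G1/S and replication were lower in Dox 24 h than in untreated 12 h cells, where 12.4% of all tested genes were, with a median of -0.372 against -0.0058 over all genes. Of 22 G2/M genes, 21 were lower, with a median of -0.39. Cdk1, the kinase that starts mitosis, had 117 and 107 CPM in Dox 24 h cells. Untreated cells had 191 and 183 at 6 h, 161 and 168 at 12 h and 123 and 121 CPM at 24 h. Both Dox 24 h libraries lay below every untreated library, with a difference of -0.55 ± 0.06 (adjusted p = 5.6e-08) from untreated 12 h cells and of -0.12 ± 0.06 (adjusted p = 0.27) from untreated 24 h cells. The replication licensing gene Mcm5 had 114 and 104 CPM in Dox 24 h cells, against 162 and 156 CPM in untreated 12 h cells (-0.54 ± 0.06, adjusted p = 2.5e-08). Birc5, the mitotic regulator survivin, had 50.1 and 48.4 CPM in Dox 24 h cells, against 73.3 and 73.8 CPM in untreated 12 h cells (-0.57 ± 0.06, adjusted p = 1e-07). In both the Dox 24 h libraries lay below the untreated 12 h ones. Against untreated 24 h cells the medians of these lists were -0.104 for G1/S and -0.118 for G2/M. In each, 2 genes were called lower, where 6.52% of all tested genes were. Along the untreated course, from 6 to 24 h, the medians were -0.43 and -0.442. Cholesterol synthesis genes were lower as well, 14 of 20 with none higher and a median of -0.241. Msmo1, a sterol oxidase of the pathway, had 194 and 183 CPM in Dox 24 h cells, against 297.8 and 289 CPM in untreated 12 h cells (-0.64 ± 0.05, adjusted p = 9e-10). Abca1, which exports cholesterol from cells, was among the 10 largest rises, with 72.2 and 68.1 CPM in Dox 24 h cells. Untreated cells had 11.1 and 11.0 at 6 h, 17.5 and 17.9 at 12 h and 35.5 and 36.9 CPM at 24 h. Values in Dox 24 h cells exceeded every untreated value (1.99 ± 0.08, adjusted p = 7.5e-17).

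Genes of the extracellular matrix were higher than in untreated 12 h cells. Of 18 collagen, laminin and basement membrane genes, 14 were higher and 0 lower in Dox 24 h than in untreated 12 h cells, where 12.3% of all tested genes were higher, and the median was 0.267. It was 0.11 against untreated 24 h cells. By a test explained below, 5 genes lay above all 3 untreated hours, where 1.59% of all tested genes did. With limma on RPKM 2 did. Lamb1, a laminin chain, had 563 and 566 CPM in Dox 24 h cells. Untreated cells had 333 and 348 at 6 h, 369 and 378 at 12 h and 477 and 477 CPM at 24 h. The Dox 24 h libraries stood above all untreated libraries (0.59 ± 0.05, adjusted p = 1.7e-10). The fibronectin gene Fn1 had 4442 and 4438 CPM in Dox 24 h cells, against 3477 and 3469 CPM in untreated 12 h cells (0.35 ± 0.04, adjusted p = 6.6e-07). Agrn, the proteoglycan agrin, had 194 and 197 CPM in Dox 24 h cells, against 135 and 133 CPM in untreated 12 h cells (0.55 ± 0.05, adjusted p = 1.1e-08). Both again stood above untreated 12 h cells without overlap. Without Dox 24 h replicate 2, 10 of the 18 were higher, and 9 with limma on RPKM. Among smooth muscle and mesenchyme genes 8 of 20 were higher and 1 lower, and their summed level was 9590 to 9629 CPM in Dox 24 h cells and 8462 to 8701 CPM in untreated 12 h cells. Postn, a matrix protein of mesenchyme, had 548 and 574 CPM in Dox 24 h cells, against 452 and 368 CPM in untreated 12 h cells (0.46 ± 0.07, adjusted p = 6.1e-06). Snai2, a repressor of epithelial genes, was lower, with 40.7 and 37.7 CPM in Dox 24 h cells, against 48.6 and 43.7 CPM in untreated 12 h cells (-0.22 ± 0.08, adjusted p = 0.046), a call lost in 9 of 17 alternatives. The part of mesenchymal cells in the matrix result was not tested. Hapln1, which ties hyaluronan to proteoglycans, was among the 10 largest falls, with 315 and 337 CPM in Dox 24 h cells, against 845 and 949.9 CPM in untreated 12 h cells (-1.46 ± 0.07, adjusted p = 1.5e-15).

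Interferon response genes centred on their untreated 12 h levels. These genes are induced by type I interferon. Of 28 tested, 27 were rising course genes, and the median difference between untreated 24 h and 12 h cells was 2.10. Between Dox 24 h and untreated 12 h cells the median was 0.0797. There, 11 genes were at the level, 2 were higher, 0 lower and 14 undecided, where 18.2% of rising course genes were at the level. Over all tested genes 12.3% were higher and 12.4% lower. Against untreated 24 h cells 27 of 28 were lower, where 6.52% of all tested genes were, with a median of -2.13. Genes at the level included Ifit1, Ifit2, Ifit3, Isg15, Rsad2, Usp18, Stat2, Irf9, Bst2 and Parp14. The summed level of the list was 193.0 to 199.8 CPM in Dox 24 h cells, 183.6 to 199.1 CPM in untreated 12 h cells and 517 to 551.7 CPM in untreated 24 h cells.

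Ifit1, which blocks translation of foreign RNA, had 5.91 and 5.38 CPM in Dox 24 h cells. Untreated cells had 1.30 and 1.19 at 6 h, 6.05 and 4.54 at 12 h and 35.4 and 42.1 CPM at 24 h. Dox 24 h and untreated 12 h libraries overlapped (0.16 ± 0.17, adjusted p = 0.54). Both groups lay far below untreated 24 h cells. Isg15, a ubiquitin-like modifier, had 5.16 and 3.16 CPM in Dox 24 h cells. Untreated cells had 1.90 and 1.26 at 6 h, 4.77 and 3.91 at 12 h and 23.3 and 25.3 CPM at 24 h. The difference from untreated 12 h cells was 0.06 ± 0.20 (adjusted p = 0.87) and that from untreated 24 h cells -2.47 ± 0.17 (adjusted p = 5.6e-12). Ifit3, a partner of IFIT1, had 3.38 and 3.16 CPM in Dox 24 h cells, against 3.56 and 3.48 CPM in untreated 12 h cells (-0.09 ± 0.19, adjusted p = 0.78). Usp18, which removes ISG15, had 4.27 and 2.08 CPM in Dox 24 h cells, against 3.49 and 3.12 CPM in untreated 12 h cells (0.08 ± 0.24, adjusted p = 0.85). Libraries of both groups overlapped for Isg15 and Usp18, and for Ifit3 the Dox 24 h ones lay just below. Members of the IFIT family share sequence, so reads could be split between them. Of the 2 genes called higher, Ddx58, a sensor of viral RNA, had 17.4 and 16.9 CPM in Dox 24 h cells, against 12.5 and 12.5 CPM in untreated 12 h cells (0.46 ± 0.12, adjusted p = 0.0037), a call lost with limma on RPKM, where 0 of the 28 were higher. The other, the antiviral GTPase gene Mx2, had 0.722 and 0.574 CPM in Dox 24 h cells, against 0.285 and 0.182 CPM in untreated 12 h cells (1.61 ± 0.58, adjusted p = 0.04). It was under 1 CPM in all 4 libraries and lost its call in 8 of the 16 alternatives that gave it a value. Myeloid genes, whose cells can carry an interferon response, summed to 97.3 to 107 CPM in Dox 24 h cells, 152.6 to 156 CPM in untreated 12 h cells and 292.3 to 298.2 CPM in untreated 24 h cells, and their part in this result was not tested.

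The 3 at-level interferon genes that rose most along the untreated course and held the interferon-stimulated response element are shown by their promoters, the 250 bases before the start (RefSeq, GRCm38.p6), with matches of the element (GAAA, 2 bases of any kind, GAAA) on either strand in capitals. They lie at chr19:34640639-34640888, plus strand for Ifit1, chr4:156200819-156201068, minus strand for Isg15 and chr19:34583279-34583528, plus strand for Ifit3.
Ifit1: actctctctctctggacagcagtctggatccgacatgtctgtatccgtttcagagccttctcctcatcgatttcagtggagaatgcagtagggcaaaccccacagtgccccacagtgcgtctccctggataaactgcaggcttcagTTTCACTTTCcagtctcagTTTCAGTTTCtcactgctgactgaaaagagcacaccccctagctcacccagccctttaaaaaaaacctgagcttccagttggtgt
Isg15: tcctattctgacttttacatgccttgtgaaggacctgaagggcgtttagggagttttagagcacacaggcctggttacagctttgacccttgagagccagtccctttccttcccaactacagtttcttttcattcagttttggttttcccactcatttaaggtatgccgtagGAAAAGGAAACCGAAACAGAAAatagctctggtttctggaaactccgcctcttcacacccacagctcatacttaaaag
Ifit3: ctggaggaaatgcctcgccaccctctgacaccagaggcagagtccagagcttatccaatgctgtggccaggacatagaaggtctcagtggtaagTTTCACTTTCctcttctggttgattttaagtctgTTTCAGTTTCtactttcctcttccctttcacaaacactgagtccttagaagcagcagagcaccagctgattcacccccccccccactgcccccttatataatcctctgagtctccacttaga
Ifit1 and Ifit3 held 2 separate matches each, and Isg15 held 3 that overlap one another. Of the 11 at-level genes, 8 matched the promoter table, with 10 promoters of 300 bases, and 6 of these 10 held the element, against 3.44% of all 32851 promoters in the table and 2.9% of the promoters of tested genes. Over the whole tested interferon list 11 of 21 promoters (52.4%) held it. A match is a run of letters and does not show binding.

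Some antigen presentation genes are also induced by interferon. Of 15 tested, 5 were higher and 1 lower in Dox 24 h than in untreated 12 h cells (12.3% and 12.4% of all tested genes), with a median of 0.207. Without Dox 24 h replicate 2, 1 was higher, and 3 were without untreated 12 h replicate 2. The peptide transporter gene Tap1 had 16.2 and 15.4 CPM in Dox 24 h cells, against 8.26 and 9.14 CPM in untreated 12 h cells (0.85 ± 0.13, adjusted p = 1.6e-05). Its partner Tapbp had 48.2 and 52.2 CPM in Dox 24 h cells, against 41.4 and 39.4 CPM in untreated 12 h cells (0.31 ± 0.08, adjusted p = 0.0041), a call lost without Dox 24 h replicate 2 and without untreated 12 h replicate 2. The chaperone gene Calr was lower, with 963 and 939.9 CPM in Dox 24 h cells, against 1105 and 1079.8 CPM in untreated 12 h cells (-0.20 ± 0.05, adjusted p = 0.0021). Other genes at the 12 h level included Cd28, a co-stimulatory receptor, among the rising ones, with 5.71 and 6.60 CPM in Dox 24 h cells, against 6.41 and 6.27 CPM in untreated 12 h cells (-0.06 ± 0.16, adjusted p = 0.83). Among the falling ones, Sost, an inhibitor of Wnt signalling, had 14.2 and 11.5 CPM in Dox 24 h cells. Untreated cells had 42.6 and 41.1 at 6 h, 11.3 and 15.6 at 12 h and 4.36 and 5.67 CPM at 24 h. Dox 24 h and untreated 12 h libraries overlapped, far below untreated 6 h and above untreated 24 h cells. Cyp26a1, which degrades retinoic acid, had 12.8 and 13.4 CPM in Dox 24 h cells, against 11.3 and 11.6 CPM in untreated 12 h cells (0.18 ± 0.12, adjusted p = 0.3).

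**Figure D3:**
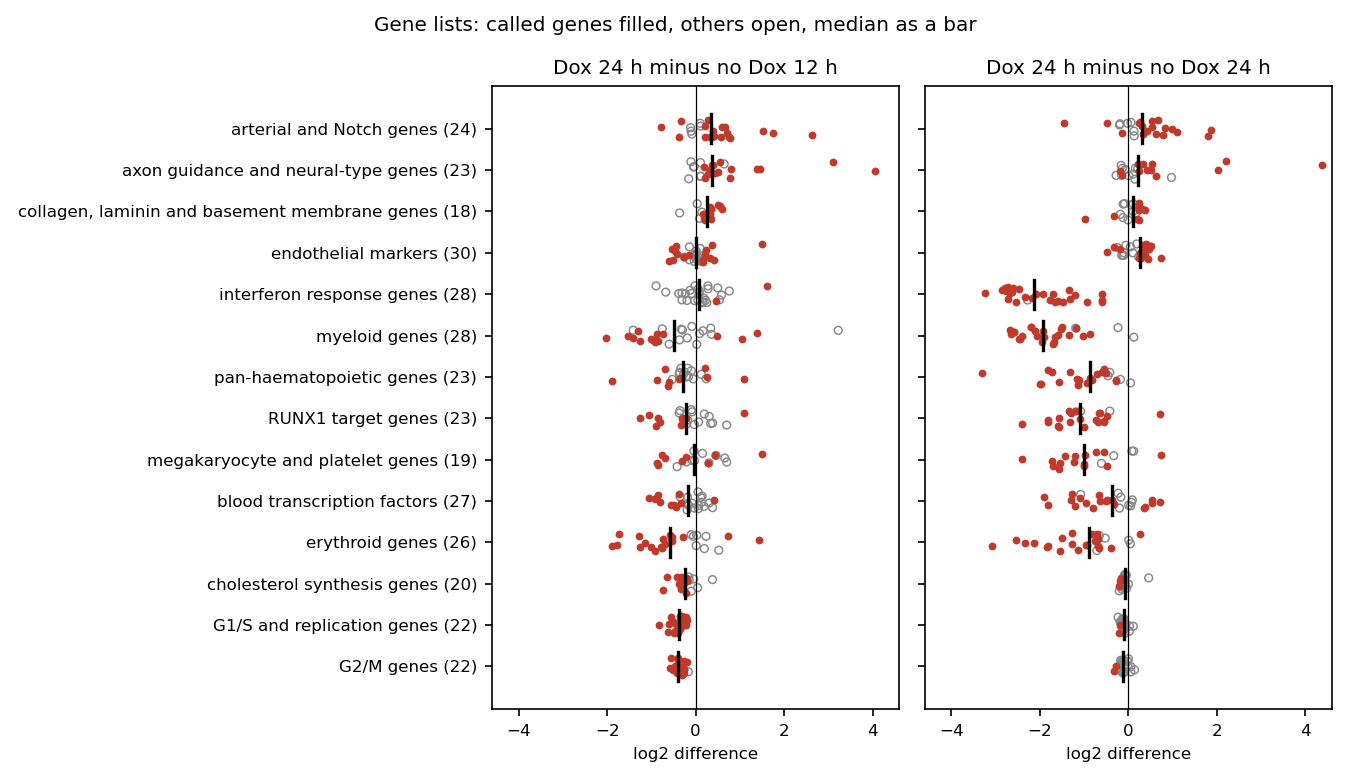
Log2 difference of each tested member of 14 gene lists (rows, number tested in brackets) between Dox 24 h and untreated 12 h cells (left) and between Dox 24 h and untreated 24 h cells (right), with called genes filled, others open and the median as a bar. Interferon genes centre on 0.0797 at left and -2.13 at right, and the G2/M median is -0.39 at left and -0.118 at right.

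Blood genes were at, behind or below the untreated 12 h state, depending on the list. Fewer blood cells and less RNA per blood cell cannot be told apart in bulk RNA. Of 23 tested RUNX1 target genes, 8 were lower and 1 higher in Dox 24 h than in untreated 12 h cells, where 12.4% of all tested genes were lower and 12.3% higher, with a median of -0.207, and without untreated 12 h replicate 1, 5 were lower. The course genes of this list gave 5 at the level, Ptprc among them, 5 behind, 1 ahead and 7 undecided. Mpo, the myeloperoxidase of granulocytes, had 9.03 and 9.12 CPM in Dox 24 h cells. Untreated cells had 15.6 and 14.1 at 6 h, 23.6 and 20.4 at 12 h and 27.7 and 27.2 CPM at 24 h. Both Dox 24 h libraries lay below all 6 untreated libraries (-1.26 ± 0.13, adjusted p = 1.7e-08). Ikzf1, the lymphoid and myeloid regulator Ikaros, had 30.9 and 31.6 CPM in Dox 24 h cells. Untreated cells had 42.3 and 43.3 at 6 h, 58.0 and 52.3 at 12 h and 63.8 and 68.3 CPM at 24 h. The Dox 24 h libraries were again lowest (-0.81 ± 0.09, adjusted p = 6.3e-08). Itga2b, the integrin CD41 that marks the first blood cells, had 46.6 and 46.9 CPM in Dox 24 h cells, against 61.5 and 54.7 CPM in untreated 12 h cells (-0.30 ± 0.07, adjusted p = 0.0022). Its call was lost without untreated 12 h replicate 1 (highest adjusted p of 0.053). Rac2, a GTPase of blood cells, went the other way, with 5.19 and 5.24 CPM in Dox 24 h cells, against 2.42 and 2.42 CPM in untreated 12 h cells (1.10 ± 0.21, adjusted p = 0.00029).

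Among 27 tested blood transcription factors, 10 were lower and 1 higher against those same shares of 12.4% and 12.3%, and 7 lay below all 3 untreated hours, by a test that requires the same direction against each hour. Over all tested genes that test called 355 (2.31%), 244 above (1.59%) and 111 below (0.723%), and it called 197 without Dox 24 h replicate 2 and 153 with limma on RPKM, where 4 of these factors lay below. Myb, needed for definitive blood, had 14.4 and 15.1 CPM in Dox 24 h cells, against 30.9 and 24.6 CPM in untreated 12 h cells (-0.89 ± 0.11, adjusted p = 6.6e-07). Nfe2, a regulator of platelet and red cell genes, had 28.4 and 23.3 CPM in Dox 24 h cells, against 53.3 and 42.7 CPM in untreated 12 h cells (-0.85 ± 0.10, adjusted p = 2.1e-07). Tal1, which specifies blood from mesoderm, had 124 and 117 CPM in Dox 24 h cells, against 169 and 161 CPM in untreated 12 h cells (-0.44 ± 0.06, adjusted p = 2.5e-06). In each the Dox 24 h libraries lay below both untreated 12 h libraries. The one higher factor was Mecom, a regulator of stem cells and arterial endothelium, with 87.0 and 96.1 CPM in Dox 24 h cells, against 62.4 and 73.1 CPM in untreated 12 h cells (0.42 ± 0.07, adjusted p = 5.7e-05).

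Many erythroid genes lay below the untreated course. Of 26 tested, 17 were lower and 2 higher in Dox 24 h than in untreated 12 h cells (12.4% and 12.3% of all tested genes), with a median of -0.57. Below all 3 untreated hours lay 11, where 0.723% of all tested genes did. The untreated 12 h libraries differed here, with a summed level of 3108 CPM in replicate 1 and 2055 CPM in replicate 2, and the Dox 24 h libraries, at 1829 to 2124 CPM, overlapped that range. Without untreated 12 h replicate 1, 10 were lower with a median of -0.249, and 9 lay below all 3 hours. With limma on RPKM 6 lay below all. Hba-x, the embryonic alpha-type globin zeta, had 269 and 221 CPM in Dox 24 h cells. Untreated cells had 469 and 496 at 6 h, 735 and 449 at 12 h and 921 and 814 CPM at 24 h. The 2 Dox 24 h values lay below all 6 untreated values (-1.26 ± 0.12, adjusted p = 3.5e-09). Hba-a1, an adult alpha globin with a near-identical copy, had 16.3 and 15.2 CPM in Dox 24 h cells, against 47.3 and 31.6 CPM in untreated 12 h cells (-1.27 ± 0.13, adjusted p = 1.7e-08). Trim10, which acts in red cell maturation, had 1.54 and 1.29 CPM in Dox 24 h cells, against 6.84 and 3.79 CPM in untreated 12 h cells (-1.77 ± 0.27, adjusted p = 1.5e-05). Hbb-y, the embryonic beta-type globin, went against the list, with 396 and 343 CPM in Dox 24 h cells. Untreated cells had 97.9 and 87.6 at 6 h, 152 and 126 at 12 h and 335 and 284 CPM at 24 h. Its Dox 24 h libraries lay above all untreated libraries (1.42 ± 0.08, adjusted p = 5e-14), though the test against all 3 hours missed its threshold (adjusted p = 0.061). Rhag, a red cell membrane protein, was the other gene called higher, with 2.82 and 3.66 CPM in Dox 24 h cells, against 2.208 and 1.73 CPM in untreated 12 h cells (0.73 ± 0.27, adjusted p = 0.048), a call lost in 12 of 17 alternatives.

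Hbb-bs, an adult beta globin, had 3.38 and 2.44 CPM in Dox 24 h cells, against 13.7 and 7.63 CPM in untreated 12 h cells (-1.73 ± 0.23, adjusted p = 2.5e-06). Its promoter (chr7:103827929-103828178, minus strand, the 250 bases before the start, RefSeq, GRCm38.p6) is shown. Of genes ranked by distance below all untreated hours, Hbb-bs was the first whose promoter held the GATA motif AGATAA. Holding the motif was thus a condition of the choice. The motif is in capitals and was searched on both strands.
Hbb-bs: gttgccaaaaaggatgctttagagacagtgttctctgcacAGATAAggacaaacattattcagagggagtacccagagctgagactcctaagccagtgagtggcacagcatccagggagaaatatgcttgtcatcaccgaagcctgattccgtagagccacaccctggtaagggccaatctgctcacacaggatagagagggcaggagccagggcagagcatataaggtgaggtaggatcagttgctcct
This motif occurred in 17.1% of 105 promoters of the genes below all untreated hours that matched the table (76 of 111 genes), against 6.47% of promoters of tested genes and 11.2% of all. The RUNX motif TGTGGT occurred in 18.1% of them, against 12.3% of promoters of tested genes and 16.8% of all. For the genes above all untreated hours, 180 of 244 matched, and the SOX motif AACAAT occurred in 6.58% of their 243 promoters, against 5.87% of promoters of tested genes and 10.7% of all. The ETS motif CGGAAG occurred in 12.3% of these, in 29% of promoters of tested genes and in 16.9% of all. Of the 11 erythroid genes below all untreated hours 7 matched, and 2 of their 7 promoters held the GATA motif. Each motif was searched on both strands of the 300-base windows, and matches of different motifs may overlap.

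Myeloid genes were often behind their untreated 12 h level. Of 28 tested, 11 were lower and 3 higher, where 12.4% of all tested genes were lower and 12.3% higher, so that the higher count is near the background. The median was -0.482. Of the list's 27 course genes, 10 were behind, 2 at the level, 4 ahead and 11 undecided. Without Dox 24 h replicate 1, 6 were lower and 1 higher. Emr4, an adhesion receptor of macrophages, led the 10 largest falls, with 1.41 and 1.65 CPM in Dox 24 h cells. Untreated cells had 1.86 and 1.93 at 6 h, 6.48 and 5.87 at 12 h and 7.72 and 8.59 CPM at 24 h. The Dox 24 h libraries stood just under untreated 6 h ones, a difference that was not called (-0.33 ± 0.27, adjusted p = 0.36). From untreated 12 h cells the difference was -2.03 ± 0.23 (adjusted p = 1.2e-07). Hp, the haptoglobin gene, had 4.70 and 3.52 CPM in Dox 24 h cells, against 8.19 and 6.42 CPM in untreated 12 h cells (-0.74 ± 0.18, adjusted p = 0.0032). Clec4n, the receptor dectin-2, had 3.22 and 2.08 CPM in Dox 24 h cells, against 5.70 and 5.00 CPM in untreated 12 h cells (-0.91 ± 0.24, adjusted p = 0.0052), a call lost without Dox 24 h replicate 2 and with limma on RPKM. Itgam, the integrin CD11b, had 4.63 and 4.74 CPM in Dox 24 h cells, against 4.91 and 4.391 CPM in untreated 12 h cells (0.03 ± 0.20, adjusted p = 0.94) and was at the level. Lyz2, lysozyme, went the other way, with 12.9 and 13.4 CPM in Dox 24 h cells, against 6.196 and 6.48 CPM in untreated 12 h cells (1.04 ± 0.14, adjusted p = 2.8e-06). Other members called higher were Cx3cr1 and Cybb, calls lost in 10 of 17 alternatives for Cx3cr1 and in 9 of 16 for Cybb. F13a1, the coagulation factor XIII A chain, lay below all untreated hours, with 2.46 and 2.44 CPM in Dox 24 h cells, against 7.98 and 5.81 CPM in untreated 12 h cells (-1.44 ± 0.21, adjusted p = 6.4e-06). Pan-haematopoietic genes gave 7 lower and 3 higher of 23, led by Plek, a platelet and leukocyte kinase substrate, with 123 and 113 CPM in Dox 24 h cells. Untreated cells had 125 and 123 at 6 h, 221 and 215 at 12 h and 378 and 397 CPM at 24 h. Its Dox 24 h libraries stood close to untreated 6 h and below untreated 12 h cells (-0.88 ± 0.06, adjusted p = 1.7e-11). Megakaryocyte and platelet genes gave 6 lower and 3 higher of 19, and 3 lower without untreated 12 h replicate 1.

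**Figure D4:**
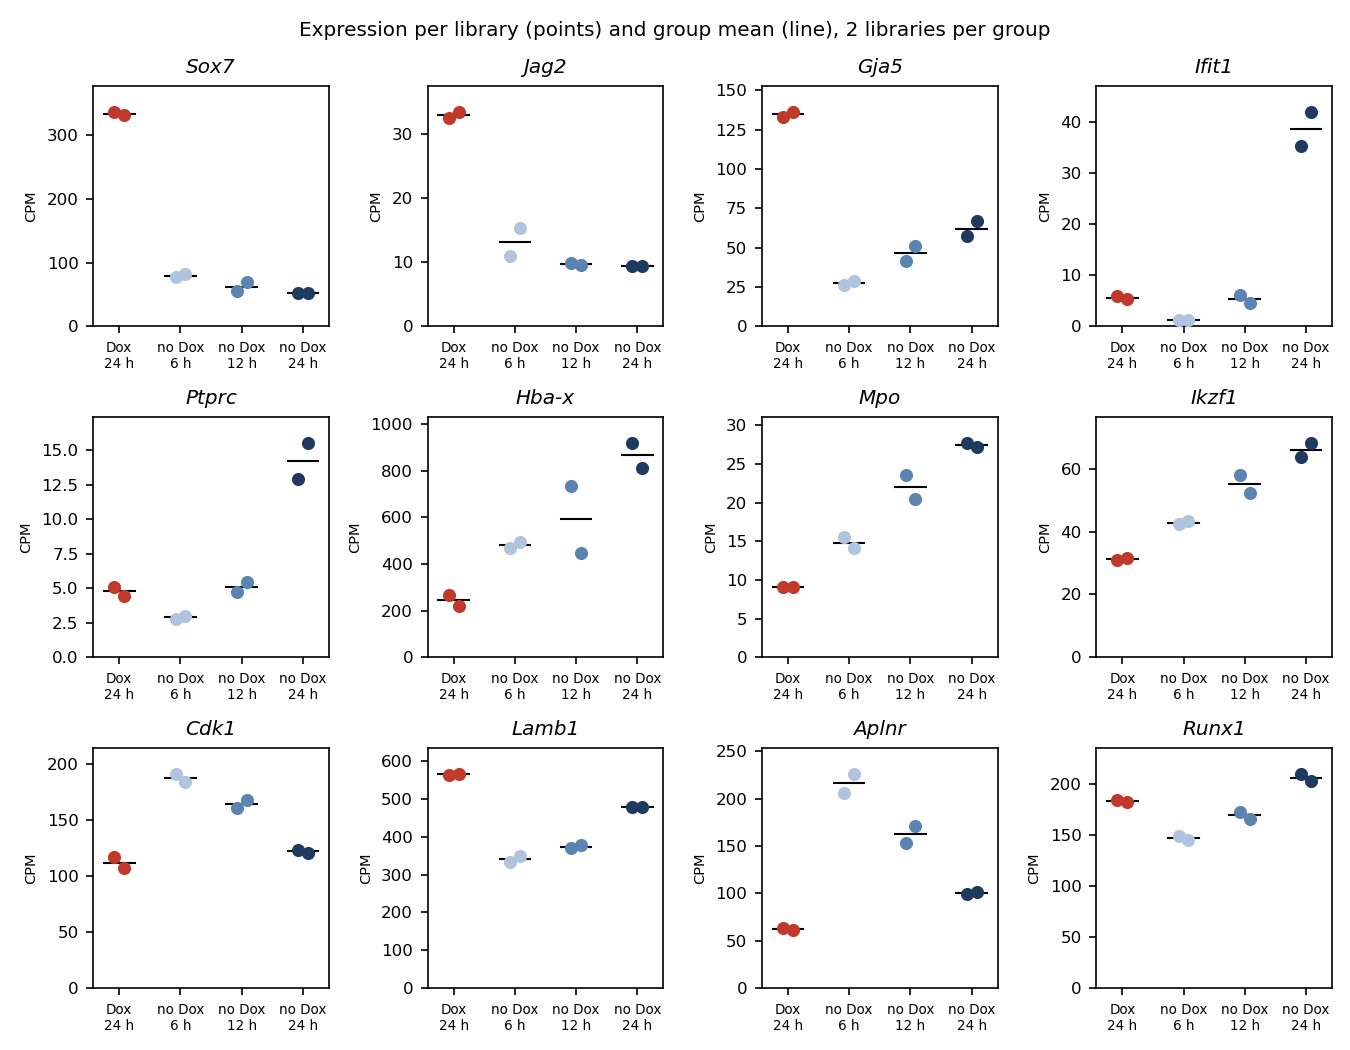
CPM per library (points, vertical axes from 0) and group mean (line) for 12 genes in Dox 24 h cells and in untreated cells at 6, 12 and 24 h (horizontal axis), 2 libraries per group. Ifit1 in Dox 24 h cells overlaps untreated 12 h cells, Cdk1 lies below its untreated values, Mpo, Ikzf1 and Hba-x lie below theirs and Sox7, Jag2, Gja5 and Lamb1 lie above theirs.

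Many arterial and Notch genes were higher than in untreated 12 h cells. Of 24 tested, 16 were higher and 3 lower in Dox 24 h than in untreated 12 h cells (12.3% and 12.4% of all tested genes), with a median of 0.342. Above all 3 untreated hours lay 11, where 1.59% of all tested genes did. With limma on RPKM 7 lay above. The Notch ligand gene Jag2 (chromosome 12, 112908590 to 112929495, minus strand) had 32.5 and 33.5 CPM in Dox 24 h cells. Untreated cells had 11.0 and 15.4 at 6 h, 9.97 and 9.63 at 12 h and 9.44 and 9.50 CPM at 24 h. Every Dox 24 h library stood far above every untreated one (1.76 ± 0.12, adjusted p = 4.1e-12), while the untreated course was flat or falling. Gja5, the arterial gap junction protein connexin 40, had 133 and 136 CPM in Dox 24 h cells. Untreated cells had 26.2 and 28.9 at 6 h, 41.8 and 51.3 at 12 h and 57.1 and 66.7 CPM at 24 h. Its untreated level climbed with time, and the Dox 24 h libraries lay beyond the 24 h end. The differences were 1.51 ± 0.08 (adjusted p = 4.6e-14) from 12 h and 1.11 ± 0.08 (adjusted p = 1.6e-11) from 24 h. Gja4, connexin 37, had 283 and 300.1 CPM in Dox 24 h cells, against 182 and 207 CPM in untreated 12 h cells (0.58 ± 0.06, adjusted p = 3e-08). The secreted guidance protein gene Sema3g had 67.2 and 72.1 CPM in Dox 24 h cells, against 41.0 and 40.1 CPM in untreated 12 h cells (0.78 ± 0.08, adjusted p = 2.3e-08). Of the 3 lower members, Hey2, a Notch target, had 18.8 and 19.7 CPM in Dox 24 h cells, against 23.3 and 24.9 CPM in untreated 12 h cells (-0.34 ± 0.11, adjusted p = 0.019). Its call was lost under DESeq2, without Dox 24 h replicate 1 and without untreated 12 h replicate 2. Cxcl12, a chemokine, had 339.8 and 354 CPM in Dox 24 h cells, against 430.4 and 472 CPM in untreated 12 h cells (-0.38 ± 0.05, adjusted p = 4.9e-06). Alox5ap, which serves leukotriene synthesis, had 10.1 and 7.03 CPM in Dox 24 h cells, against 15.6 and 15.1 CPM in untreated 12 h cells (-0.78 ± 0.13, adjusted p = 5.9e-05).

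Endothelial markers differed in both directions. Of 30 tested, 8 were higher and 8 lower, where 12.3% of all tested genes were higher and 12.4% lower, and the median was 0.0138. Without Dox 24 h replicate 2, 4 were higher and 8 lower, and without untreated 12 h replicate 1, 4 were higher and 10 lower. Cdh5, whose values are given above, was higher (0.37 ± 0.05, adjusted p = 7e-06). Vwf, von Willebrand factor, had 17.4 and 17.0 CPM in Dox 24 h cells. Untreated cells had 4.389 and 4.82 at 6 h, 6.69 and 5.66 at 12 h and 10.4 and 10.4 CPM at 24 h. Its Dox 24 h libraries were highest (1.51 ± 0.15, adjusted p = 1.5e-08). Cd34, a surface protein of endothelium and progenitors, was lower, with 279.7 and 271 CPM in Dox 24 h cells, against 382 and 408 CPM in untreated 12 h cells (-0.52 ± 0.05, adjusted p = 1.1e-08). It lay below all untreated hours. Of 14 venous and lymphatic genes, 3 were higher and 4 lower. Aplnr, the apelin receptor of venous endothelium, had 63.7 and 61.4 CPM in Dox 24 h cells. Untreated cells had 206 and 226 at 6 h, 153 and 171 at 12 h and 99.0 and 101 CPM at 24 h. Values in Dox 24 h cells were lowest (-1.38 ± 0.07, adjusted p = 1.7e-15). Lyve1, a hyaluronan receptor of lymphatic endothelium, had 11.3 and 13.1 CPM in Dox 24 h cells. Untreated cells had 26.4 and 26.6 at 6 h, 40.2 and 36.8 at 12 h and 28.4 and 32.1 CPM at 24 h. Again the Dox 24 h libraries were lowest (-1.67 ± 0.10, adjusted p = 5.5e-13). Nrp2, a receptor for VEGF-C and semaphorins, had 617 and 703 CPM in Dox 24 h cells, against 447 and 484 CPM in untreated 12 h cells (0.50 ± 0.05, adjusted p = 5.7e-08). Prox1, the lymphatic master regulator, had 25.1 and 26.3 CPM in Dox 24 h cells, against 16.2 and 15.0 CPM in untreated 12 h cells (0.72 ± 0.11, adjusted p = 1.7e-05).

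Axon guidance and neural-type genes, many of which also act in vessels, were higher in 15 of 23 and lower in 0 (12.3% and 12.4% of all tested genes), with a median of 0.371. Rasd2, a small GTPase best known in striatum, had 12.2 and 10.2 CPM in Dox 24 h cells. Untreated cells had 0.527 and 1.11 at 6 h, 0.570 and 0.727 at 12 h and 0.858 and 0.395 CPM at 24 h. It was low in every untreated library and higher in both Dox 24 h ones (4.05 ± 0.27, adjusted p = 3.6e-12). Ntn4, a netrin of basement membranes, had 13.7 and 13.6 CPM in Dox 24 h cells, against 6.05 and 4.42 CPM in untreated 12 h cells (1.44 ± 0.17, adjusted p = 2.1e-07).

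Further genes lay above or below every untreated hour. Among genes averaging 1 or more in log2 CPM, which leaves out Rasd2, the 10 largest above, besides Sox7 and Jag2, were Aqp8, Mt2, Clic6, Myh7, Il9r, Frmpd1, Map2 and Ace. Aqp8, a water channel, had 12.9 and 13.7 CPM in Dox 24 h cells. Untreated cells had 3.62 and 3.33 at 6 h, 2.07 and 2.12 at 12 h and 2.86 and 2.58 CPM at 24 h. Against 12 h it differed by 2.65 ± 0.18 (adjusted p = 6.5e-12). Clic6, of the chloride intracellular channel family, had 70.2 and 59.6 CPM in Dox 24 h cells. Untreated cells had 19.03 and 18.9 at 6 h, 16.5 and 16.5 at 12 h and 15.7 and 14.9 CPM at 24 h. Its difference from untreated 12 h cells was 1.98 ± 0.10 (adjusted p = 2.3e-15). Mt2, a metal-binding metallothionein, had 9.95 and 9.69 CPM in Dox 24 h cells. Untreated cells had 1.83 and 1.48 at 6 h, 2.07 and 1.70 at 12 h and 3.15 and 3.13 CPM at 24 h. For Mt2 the difference from untreated 12 h cells was 2.43 ± 0.21 (adjusted p = 1.3e-09). Ace, the angiotensin-converting enzyme, had 7.95 and 11.4 CPM in Dox 24 h cells, against 4.06 and 3.79 CPM in untreated 12 h cells (1.27 ± 0.18, adjusted p = 5.9e-06). Both Dox 24 h libraries exceeded all untreated ones in each of these 4 genes, which was a condition of their choice. Myh7, a myosin of heart and slow muscle, had 8.57 and 8.61 CPM in Dox 24 h cells, against 2.56 and 2.30 CPM in untreated 12 h cells (1.84 ± 0.20, adjusted p = 6.3e-08). Of 16 cardiac genes 5 were higher and 3 lower, where 12.3% of all tested genes were higher and 12.4% lower. Under DESeq2 3 were higher. Above all 3 untreated hours lay 3 cardiac genes, Myh7 among them, where 1.59% of all tested genes did, and 1 with limma on RPKM. The defining cardiac gene Nkx2-5 had 5.84 and 5.74 CPM in Dox 24 h cells, against 5.84 and 7.06 CPM in untreated 12 h cells (-0.18 ± 0.16, adjusted p = 0.46). Below the course, besides blood genes and Lyve1, stood Cpne7, St8sia1, Slc38a5, Kcnk9 and Wscd2. St8sia1, the synthase of ganglioside GD3, had 3.15 and 4.88 CPM in Dox 24 h cells. Untreated cells had 11.1 and 10.7 at 6 h, 10.3 and 11.6 at 12 h and 10.0 and 11.8 CPM at 24 h. Dox 24 h values were lowest (-1.54 ± 0.18, adjusted p = 3.1e-07, against 12 h). Slc38a5, an amino acid transporter, had 2.00 and 1.22 CPM in Dox 24 h cells, against 5.55 and 3.72 CPM in untreated 12 h cells (-1.36 ± 0.25, adjusted p = 0.00012).

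**Figure D5:**
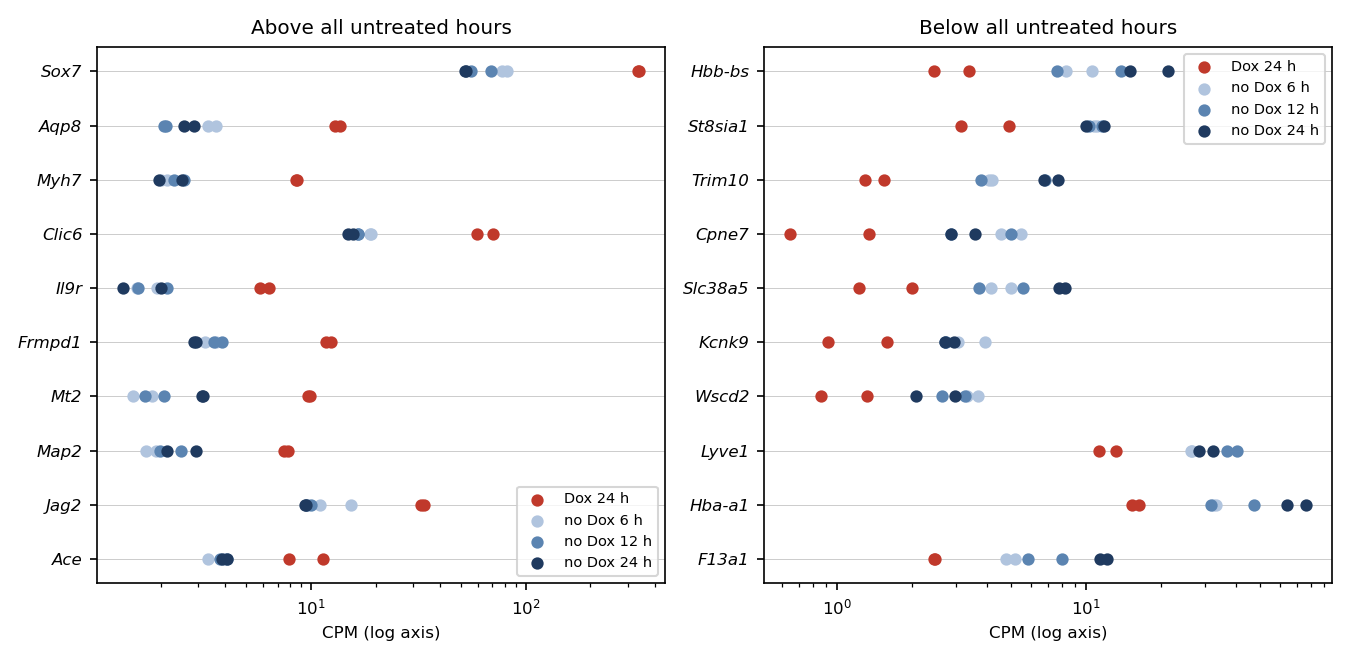
CPM per library (horizontal log axes) of the 10 genes with the largest distance above (left) and below (right) all untreated hours, among those averaging 1 or more in log2 CPM, with Dox 24 h cells in red and untreated cells at 6, 12 and 24 h in blue shades, 2 libraries each. Genes were picked only where both red points lie outside the range of the 6 blue points.

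Among falling course genes, 237 were ahead and 14 behind. Oit3 had 17.7 and 15.1 CPM in Dox 24 h cells. Untreated cells had 90.6 and 94.0 at 6 h, 53.8 and 64.0 at 12 h and 25.0 and 23.2 CPM at 24 h. Both Dox 24 h libraries lay below the untreated 24 h end. The differences were -1.84 ± 0.09 (adjusted p = 2.8e-15) from 12 h and -0.52 ± 0.10 (adjusted p = 0.00028) from 24 h. Etv2, the factor that starts blood and endothelial fate in mesoderm, had 1.28 and 1.36 CPM in Dox 24 h cells, against 2.92 and 2.30 CPM in untreated 12 h cells (-0.95 ± 0.28, adjusted p = 0.011), a call lost without Dox 24 h replicate 1 and without untreated 12 h replicate 1. Sgk1, a kinase induced by serum and steroids, had 51.7 and 52.2 CPM in Dox 24 h cells, against 55.1 and 73.8 CPM in untreated 12 h cells (-0.34 ± 0.08, adjusted p = 0.003). Without untreated 12 h replicate 2 its difference was -0.085 (adjusted p = 0.54), and the call was also lost with limma on RPKM. The heart actin gene Actc1 had 23.5 and 21.5 CPM in Dox 24 h cells, against 38.3 and 41.4 CPM in untreated 12 h cells (-0.82 ± 0.09, adjusted p = 6.7e-08). The few falling genes behind the 12 h level, besides Sox7, included Edn1, the vasoconstrictor endothelin 1, with 39.9 and 43.8 CPM in Dox 24 h cells. Untreated cells had 49.7 and 47.9 at 6 h, 25.2 and 31.9 at 12 h and 25.6 and 27.5 CPM at 24 h. Dox 24 h libraries lay between untreated 6 h and 12 h ones (0.51 ± 0.11, adjusted p = 0.00089, against 12 h). Gldc, of glycine breakdown, had 32.3 and 37.3 CPM in Dox 24 h cells. Untreated cells had 33.8 and 31.0 at 6 h, 26.2 and 25.6 at 12 h and 16.9 and 19.3 CPM at 24 h. Dox 24 h and untreated 6 h libraries overlapped, above the 12 h ones (0.41 ± 0.09, adjusted p = 0.001, against 12 h). Rnf165 exceeded all untreated hours, with 9.65 and 10.8 CPM in Dox 24 h cells, against 4.84 and 6.15 CPM in untreated 12 h cells (0.84 ± 0.15, adjusted p = 9e-05).

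Stress lists and lists of other cells are read against 12.4% of all tested genes lower and 12.3% higher. ATF4 stress genes gave 7 lower and 2 higher of 21, and 4 lower without untreated 12 h replicate 1. Hypoxia and glycolysis genes gave 4 lower and 2 higher of 20, near those shares. Without Dox 24 h replicate 2 they gave 1 lower and 3 higher, and without untreated 12 h replicate 1, 1 lower and 4 higher. Immediate early genes gave 6 higher and 2 lower of 19. Vegfa, the vascular growth factor, was 1 of the 2 hypoxia and glycolysis genes called higher. It had 158 and 169 CPM in Dox 24 h cells, against 120.3 and 116 CPM in untreated 12 h cells (0.47 ± 0.06, adjusted p = 4.4e-07). Of the 4 lower ones, Slc2a1 differed by -0.267 (adjusted p = 9e-05) and Ldha by -0.202 (adjusted p = 0.016). Ldha lost its call in 4 of 17 alternatives. Of 7 tested mitochondrially encoded genes 4 were higher, and their summed level was 17170 to 20510 CPM in Dox 24 h cells and 15410 to 16210 CPM in untreated 12 h cells. Without Dox 24 h replicate 1, 2 were higher, and 1 with limma on RPKM. The 6 others are listed at 0. Pluripotency genes gave 3 lower of 10, and 1 lower without Dox 24 h replicate 1. Primitive streak genes gave 1 higher and 1 lower of 8, near the shares of all genes. Endoderm and epithelial genes gave 3 higher, Sox7 among them, and 3 lower of 12, and 1 higher without untreated 12 h replicate 1.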

How the data were processed

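RNA was sequenced as single reads of 75 bases, per the labels' protocols. Both tables cover all 12 libraries. One holds the raw read counts that the authors deposited for each gene, as whole numbers, and the other the authors' deposited RPKM values. The submitters' processing notes name Bowtie2, SAMtools 0.1.19, R 3.1.0, edgeR 3.8.5 and the build GRCm38. How reads were counted, and with which strand setting, is not stated there, so overlapping, antisense and near-identical genes are uncertain.

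Counts were filtered with filterByExpr, scaled by TMM and fitted in edgeR 4.0.16 (R 4.3.3) with 1 mean per group over all 12 libraries, leaving 6 residual degrees of freedom. Genes outside all untreated hours had the same sign in 3 contrasts, and the largest p was adjusted. Positions used log2 CPM with a prior count of 2 and a grid of 0.5 h. The fit was also run on simulated data, with results that are not reported here. Alternatives were other scalings, filters, margins and fold minimums, DESeq2 1.42.0, limma 3.58.1 on log2(RPKM + 0.1), replicate block and each replicate left out.

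Replicates of a group differed by more than counting noise (chi-square per degree of freedom 2.63 to 4.61). Total counts ranged from 13485804 to 35250074.

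Members and gene lists were chosen with earlier results of these data known. The genes named are 8 fixed ones, the 10 largest rises, falls and genes on either side of all untreated hours, 5 course genes per class and direction, the top 4 of each list by adjusted p and members called against their list, the picks outside lists needing a mean log2 CPM of 1 or more, and defining cell type markers. The largest rises, falls and genes outside all untreated hours were taken only where Dox 24 h libraries did not overlap the untreated ones compared. The interferon genes listed at the 12 h level beyond this rule were chosen after their values were seen. Some genes that the rule picks are not reported here.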

Additional observations from a re-analysis of the deposited data

How the results depend on the processing

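The count between Dox 24 h and untreated 12 h cells ran from 3085 under DESeq2 to 3833 under the stricter filter over the settings that kept all libraries, and the share of higher genes was 43.5% without a filter and 40.4% with limma on RPKM, against 49.9% in the fit reported. With each replicate left out it ran from 2396 (without Dox 24 h replicate 2) to 3726. The count against untreated 24 h cells ran from 1065 to 1722 and that against untreated 6 h cells from 3881 to 6131. Course genes ran from 1531 to 1996, those ahead from 502 to 734, those at the level from 304 to 443, those behind from 63 (without untreated 12 h replicate 1) to 103 and genes outside all untreated hours from 197 to 327. The nearest hour, as the mean of the 2 Dox 24 h libraries, ran from 14.75 to 15.75 by course genes and from 16 to 18.75 by all genes, and the position from 0.5475 to 0.6259. Without a fold minimum there were 6280 course genes, 2499 ahead, 2718 at the level and 225 behind, and with a 2-fold minimum 937, 245, 94 and 60, a nearest hour of 14.5 and a position of 0.522. A narrower margin left 99 genes at the level and one of 2-fold 708. limma on RPKM called 153 genes outside all untreated hours; the cause was not tested. Deviations of same-numbered libraries from their group means correlated at -0.0352 to 0.0764, highest between Dox 24 h and untreated 12 h cells. These correlations weight low and high genes alike, so they cannot exclude a pairing by replicate number. A replicate block called 3832 genes between Dox 24 h and untreated 12 h cells and 364 outside. A depth block, chosen after seeing the data, called 3789 and 349. Of 142 called named genes, 107 kept their call in every alternative that gave them a value, of 17 in all, and 35 lost it in at least 1. The sign turned in 0 of these 142, while some genes that were not called, Sox17 and Ifit1 among them, had values on both sides of 0. Undecided rising course genes had a median log2 CPM of 0.391, and the part of depth was not tested.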
